A study of Homo sapiens with 12 samples.

Results

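The YAP and TEAD genes described here are 10 members of the Hippo signalling output: the coactivators YAP1 and WWTR1 (which encodes TAZ), the DNA-binding factor TEAD1, the kinase LATS2, the adaptor proteins AMOTL1, AMOTL2 and AJUBA, and the transcribed targets CCN1, CCN2 and ANKRD1. They were chosen by name, with earlier results of these data known, and their Ensembl identifiers were looked up in a table of 63541 gene IDs. All 10 were found and all 10 passed the filter on low counts that left 21999 genes for testing. Expression was measured by RNA-seq in 12 libraries from HEK293T, a human embryonic kidney cell line, 48 h after transfection of 12.5 nM siRNA with Lipofectamine RNAiMAX. The 4 groups had 3 replicates each: a scramble siRNA as control, and si-snaR-A#1, si-snaR-A#2 or else si-snaR-A#3, all directed at the 3′-proximal end of snaR-A, a small noncoding RNA made by RNA polymerase III. All cells, controls included, had been transfected, and no untransfected cells are analysed here. The contrasts ask which mRNAs differ after siRNAs against snaR-A, and whether the 3 siRNAs differ from each other.

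In the Hippo pathway, the kinases MST1 and MST2 activate LATS1 and LATS2, which phosphorylate YAP and TAZ and so keep them out of the nucleus or mark them for degradation. Unphosphorylated YAP and TAZ enter the nucleus, bind TEAD factors and switch on genes for growth, adhesion and matrix, a set that includes CCN1, CCN2 and ANKRD1 and also feedback inhibitors such as LATS2 and AMOTL2. Cell density, cell shape and tension in the actin cytoskeleton feed into the cascade, which is studied in kidney epithelium for its part in growth control. The proteins, their phosphorylation and their place in the cell were not measured, so the values below are RNA levels.

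TEAD factors bind the MCAT element, whose letters are CATTCC, or GGAATG when read on the other strand. RefSeq promoter windows (GRCh38.p14, 250 bases before to 50 after each transcription start) were found for 8 of the 10 genes, in 11 windows. CCN1 and TEAD1 were not matched. An MCAT match on either strand was present in 6 of the 11 windows, 1 in each of 6 genes, against 14% of 35116 windows of the same length for all genes. The stretches below are shown because they hold those matches, printed 5′ to 3′ on the gene's own strand with MCAT letters in capitals, and in ANKRD1 also the letters of an AP-1 match (TGANTCA). The CCN2 and ANKRD1 lines are the whole 250 bases before the start, chr6:131951373-131951622 and chr10:90921088-90921337, both on the minus strand. The others are 30 bases around the match, at chr11:102110273-102110302 on the plus strand for YAP1 and on the minus strand at chr13:21061560-21061589 for LATS2, chr3:134374499-134374528 for AMOTL2 and chr14:22976884-22976913 for AJUBA.
YAP1: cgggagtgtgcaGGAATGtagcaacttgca
LATS2: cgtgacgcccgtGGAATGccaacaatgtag
CCN2: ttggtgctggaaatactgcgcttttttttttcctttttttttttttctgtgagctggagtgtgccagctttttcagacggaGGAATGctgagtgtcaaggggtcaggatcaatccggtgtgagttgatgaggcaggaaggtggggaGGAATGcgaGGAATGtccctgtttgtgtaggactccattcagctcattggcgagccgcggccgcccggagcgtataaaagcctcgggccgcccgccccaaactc
ANKRD1: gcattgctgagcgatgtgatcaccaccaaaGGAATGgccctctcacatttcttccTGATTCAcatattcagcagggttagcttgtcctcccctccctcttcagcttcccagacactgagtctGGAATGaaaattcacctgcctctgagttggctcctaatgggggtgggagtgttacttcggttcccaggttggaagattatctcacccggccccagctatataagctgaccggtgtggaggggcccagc
AMOTL2: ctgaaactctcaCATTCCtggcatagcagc
AJUBA: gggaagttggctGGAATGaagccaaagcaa

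CCN2 had 3 MCAT matches, starting at bases -169, -104 and -95 from the transcription start, and 0.128% of all windows held as many as 3. ANKRD1 had 2, starting at bases -220 and -128, and 1.37% of all windows held at least 2. The single matches lay at -162 in YAP1, at 10 in LATS2, just inside the transcribed part, at -69 before the downstream of the AMOTL2 starts and at -59 before the downstream of the AJUBA starts. The WWTR1 windows and the AMOTL1 window had no match. The AP-1 pattern was searched with any base at its centre. Its only match was in ANKRD1, at -195, with T at the centre (7.71% of all windows hold a match to this pattern). A TATAAA match was found in CCN2 alone, at -32 (11.5% of all windows). No window of the 8 genes held a CArG box, the element bound by SRF, which 1.29% of all windows hold. All motifs were searched on both strands, and no match overlapped another. These are matches of letters, and binding of TEAD factors was not measured in these libraries.

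**Figure D1:**
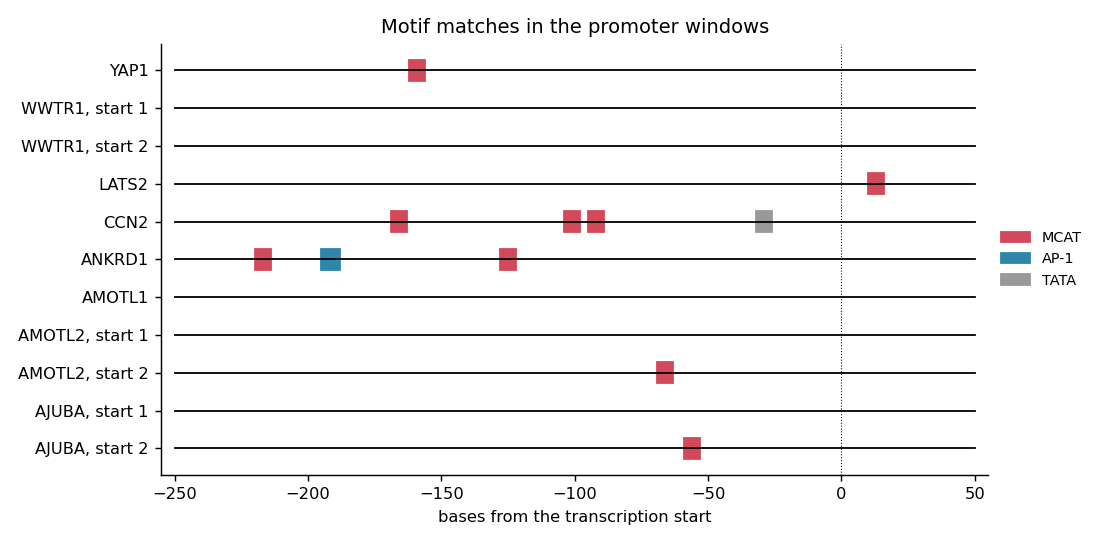
Motif matches in the 11 RefSeq promoter windows of 8 genes, drawn by distance in bases from the transcription start (dotted line). Red boxes are MCAT matches, the blue box is the AP-1 match and the grey box the TATAAA match. CCN2 carries 3 MCAT matches and ANKRD1 carries 2, and the windows of WWTR1 and AMOTL1 carry none.

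Library totals lay between 120.4 and 180.1 M estimated counts. Replicates of a group differed by more than counting error. The first principal component held 37.8% of the variance and set the si-snaR-A#1 libraries (-44.7 to -36.7) apart from the other 9 (7.1 to 17.5). Mitochondrial RNA took 3.66% to 4.53% of counts with si-snaR-A#1, 5.00% to 5.82% with si-snaR-A#2, 4.06% to 5.83% with si-snaR-A#3 and 4.78% to 6.05% in scramble, and the part of these differences in the results below was not tested. Rows for snaR-A were not analysed here, so the depletion was not checked against the labels. The line expressed VIM (543 CPM in scramble) and CDH2 (143 CPM), with KRT18 at 29.9, CDH1 at 10.6 and KRT8 at 7.66 CPM. The kidney factor PAX2 was at 5.49, EPCAM at 1.86 and LHX1 at 0.649 CPM. PAX8, another kidney factor, was at or near 0. With si-snaR-A#1 PAX2 was called higher and CDH1 and CDH2 lower (37.5% of 8 tested, against 45.2% of all genes). With si-snaR-A#2 VIM was called higher and CDH1 lower (25% against 25.8%). With si-snaR-A#3, 3 were called higher and 2 lower (62.5% against 29.4%). Of 9 markers of leukocytes, endothelium and fibroblasts, 4 passed the filter (COL1A1, LUM, CD68 and DCN). The others, PTPRC, CD3E, PECAM1, CDH5 and COL1A2, did not and were at or near 0. The summed level of the 9 markers was 29.2 to 31.3 CPM in scramble and 26.1 to 28.5 with si-snaR-A#1. It was 24.8 to 30.03 with si-snaR-A#2 and 21.3 to 22.5 with si-snaR-A#3. COL1A1 made up most of that sum, averaging 25.4 CPM in scramble and 13.6 CPM with si-snaR-A#3, and was called lower with each siRNA. LUM was called higher with si-snaR-A#2 (1.75-fold) and si-snaR-A#3 (1.80-fold), and CD68 with si-snaR-A#1 (1.82-fold) and si-snaR-A#3 (2.5-fold). DCN, at 0.199 CPM in scramble, was called lower with si-snaR-A#1 (0.176-fold). The part of these markers in the results was not tested. CPM are counts relative to the size of the library after TMM scaling, which corrects for differences in RNA composition.

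Per kilobase of exon, the scale on which genes can be set against each other, YAP1 was the most abundant of the 10 in scramble, at 17.7 ± 0.369 CPM per kb (SD, n = 3). WWTR1 (11.4 ± 0.432) and TEAD1 (11.3 ± 0.564) came next and did not differ beyond their spread. AMOTL1 followed at 8.08 ± 0.242, CCN1 at 5.08 ± 0.557, LATS2 at 3.80 ± 0.0808, AJUBA at 3.38 ± 0.273 and AMOTL2 at 2.34 ± 0.0648 CPM per kb. CCN2, at 1.74 ± 0.142, and ANKRD1, at 0.884 ± 0.168 CPM per kb, were the least abundant. The coactivators and their DNA-binding partner thus stood above all 3 targets in these cells. With si-snaR-A#1 the mean of AMOTL1 was 13.9 CPM per kb, above those of TEAD1 (11.1) and WWTR1 (8.33), and ANKRD1 was the lowest of the 10 in all 4 groups. The length used is that of all annotated exons of a gene (GENCODE release 44), and the transcripts that the authors counted may be shorter.

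Against scramble, 6 of the 10 genes were called with si-snaR-A#1 (2 higher, 4 lower), where 45.2% of all 21999 genes tested were called. The counts were 6 with si-snaR-A#2 (3 higher, 3 lower), against 25.8% of all genes, and 5 with si-snaR-A#3 (4 higher, 1 lower), against 29.4%. In the mean of the 3 siRNAs 6 were called (3 higher, 3 lower), against 32.2%. The 10 genes, the wider lists and the contrasts were chosen with earlier results of these data known. Such counts are therefore a description and do not test the genes against all genes. A call is an adjusted p under 0.05 in edgeR's quasi-likelihood test, with Benjamini-Hochberg adjustment over all genes tested. The median log2 fold change of the 10 genes was -0.01, 0.02 and 0.10 with the 3 siRNAs in order, and -0.02, -0.03 and -0.03 over all genes. The pathway genes therefore did not shift together in one direction. LATS2 and AMOTL1 were called higher and WWTR1 lower with each of the 3 siRNAs, TEAD1 and CCN2 were called with none, and AJUBA was called lower with si-snaR-A#1 and higher with si-snaR-A#3. The 3 contrasts share their scramble libraries and are not independent. The paper lists overlapping sequences for the 3 siRNAs, so a call shared by all 3 is not a replication with unrelated siRNAs. In bulk RNA, fewer cells that express a gene and less of its RNA per cell cannot be told apart.

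**Figure D2:**
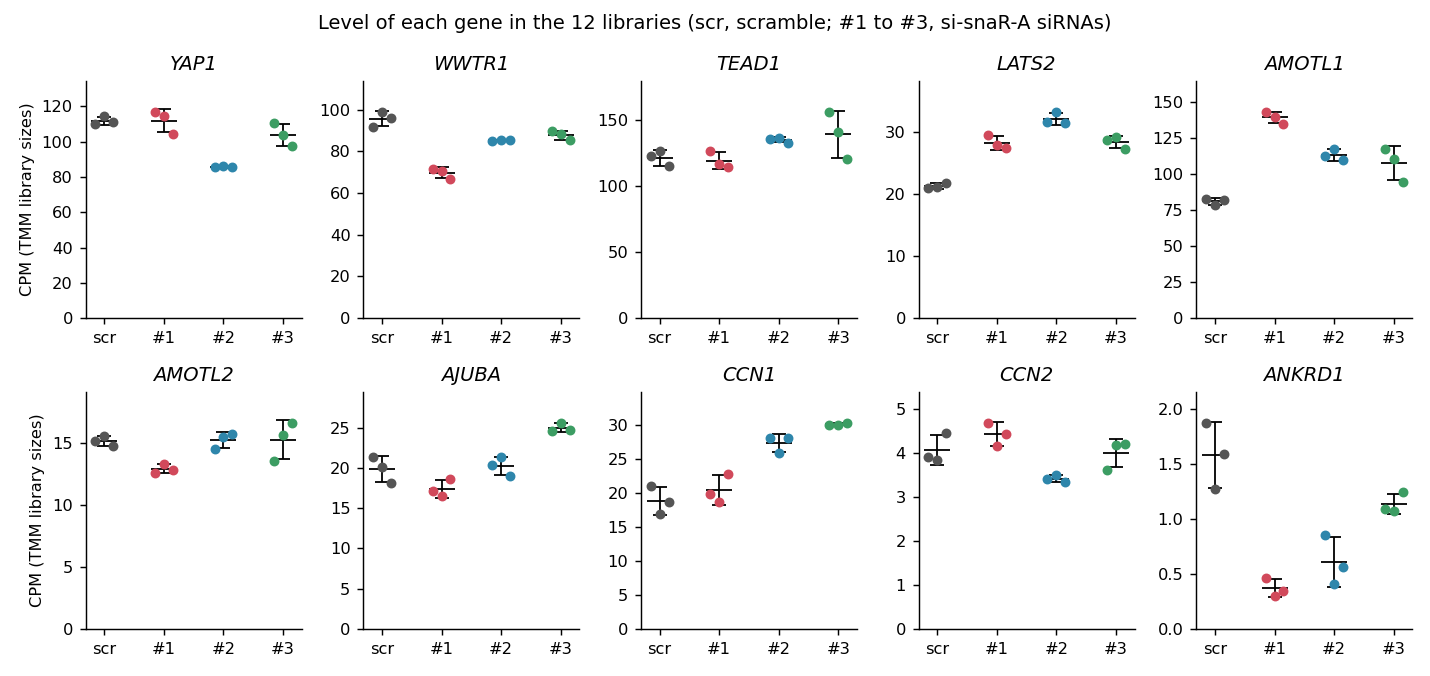
Level of each of the 10 genes in the 12 libraries, in CPM on TMM library sizes, on axes that start at 0. Points are libraries, the long horizontal line is the group mean and the capped bar its SD (n = 3). LATS2 and AMOTL1 lie above scramble in all 9 libraries with an siRNA against snaR-A, and WWTR1 and ANKRD1 lie below it in all 9.

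The coactivators YAP1 and WWTR1, close relatives that share partners and targets, did not move alike. YAP1 (ENSG00000137693, chromosome 11, 102110447 to 102233424, plus strand, GRCh38) had 109.8, 114.3 and 110.9 CPM in the scramble libraries. It had 116.8, 114.5 and 104.3 CPM with si-snaR-A#1, 85.6, 86.0 and 85.4 CPM with si-snaR-A#2, and 110.3, 103.6 and 97.8 CPM with si-snaR-A#3. The si-snaR-A#2 libraries lay together below all others, and those of the other siRNAs overlapped scramble. YAP1 fell with si-snaR-A#2 by 0.38 on the log2 scale (SE 0.05, 0.767-fold, edgeR adjusted p 0.000114). With si-snaR-A#1 its log2 fold change was 0.00 (95% interval -0.11 to 0.11, edgeR adjusted p 0.971), and with si-snaR-A#3 it was -0.10 (-0.21 to 0.00, edgeR adjusted p 0.139). The latter was called under upper quartile scaling (edgeR adjusted p 0.0163) and with a filter at a mean of 1 CPM (0.033). Averaged over the 3 siRNAs, YAP1 fell by 0.16 (SE 0.04, edgeR adjusted p 0.00801), a call that was lost without scramble replicate 2 (edgeR adjusted p 0.0523).

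WWTR1 (ENSG00000018408, chromosome 3, 149517235 to 149736714, minus strand) had 91.7, 98.8 and 96.1 CPM in scramble and 71.7, 70.4 and 66.6 CPM with si-snaR-A#1. The levels were 84.8, 85.5 and 85.2 CPM with si-snaR-A#2, and 89.6, 88.2 and 85.3 CPM in the si-snaR-A#3 libraries. All 9 of these libraries lay below the lowest scramble library, those of si-snaR-A#1 farthest. WWTR1 fell by 0.46 with si-snaR-A#1 (SE 0.04, 0.729-fold, edgeR adjusted p 1.13e-06) and by 0.17 with si-snaR-A#2 (SE 0.04, 0.892-fold, edgeR adjusted p 0.00794). With si-snaR-A#3 it fell by 0.12 (SE 0.04, 0.918-fold, edgeR adjusted p 0.0327). That small fall was called in only 5 of 14 alternative analyses, whose adjusted p ran from 0.00172 to 0.136. It was lost without replicate 2 or 3 of si-snaR-A#3 and without scramble replicate 2 or 3, and the si-snaR-A#2 call was lost without scramble replicate 3 (edgeR adjusted p 0.0647). Exons of YAP1 overlap those of 2 genes on the other strand and exons of WWTR1 those of WWTR1-AS1, and all 3 overlapping genes stayed at or below 0.338 CPM. Genes whose exons overlap CCN2, AMOTL1, AMOTL2 or AJUBA were at or below 0.0469 CPM in every library.

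With both coactivators summed per kilobase, YAP1 made up 60.8% ± 0.503 of the pair in scramble (SD, n = 3). After si-snaR-A#1 the share was 68.0% ± 0.495, after si-snaR-A#2 it was 57.1% ± 0.0927 and after si-snaR-A#3 it was 61.0% ± 0.849. The share thus lay above scramble with si-snaR-A#1 and below it with si-snaR-A#2, by more than the spread of the replicates, and within that spread with si-snaR-A#3. No test was run on these shares.

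TEAD1 (ENSG00000187079, chromosome 11, 12674421 to 12944737, plus strand), which carries YAP and TAZ to DNA, was called with none of the siRNAs. It had 122.4, 126.9 and 115.0 CPM in scramble, 126.4, 116.8 and 114.4 CPM with si-snaR-A#1, 136.0, 136.4 and 132.7 CPM with si-snaR-A#2 and 156.1, 141.1 and 120.5 CPM with si-snaR-A#3. The si-snaR-A#2 libraries all lay above scramble, and those of si-snaR-A#3 ranged from a value inside the scramble spread to the highest of the 12. Its log2 fold changes were -0.03 (95% interval -0.19 to 0.14), 0.15 (-0.01 to 0.32) and 0.20 (0.03 to 0.36), with edgeR adjusted p of 0.806, 0.168 and 0.0690. The si-snaR-A#3 value stayed uncalled in 10 of 14 alternative analyses, with log2 fold changes from 0.11 to 0.29 and adjusted p from 0.00307 to 0.271. The highest of these, 0.29, came without replicate 3 of that group and was called (edgeR adjusted p 0.00307). The si-snaR-A#2 value was called by edgeR's exact test (adjusted p 0.00309) and when only the libraries of that contrast were fitted (edgeR adjusted p 0.0152).

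LATS2 (ENSG00000150457, chromosome 13, 20973036 to 21061586, minus strand), the kinase that phosphorylates YAP and TAZ, had 21.0, 21.2 and 21.9 CPM in scramble. It had 29.5, 27.9 and 27.4 CPM with si-snaR-A#1, 31.6, 33.3 and 31.5 CPM with si-snaR-A#2 and 28.75, 29.2 and 27.4 CPM with si-snaR-A#3. All 9 libraries lay above all scramble libraries, and those of si-snaR-A#2 above the other 6. LATS2 rose by 0.41 with si-snaR-A#1 (SE 0.04, 1.32-fold, edgeR adjusted p 7.99e-06), by 0.59 with si-snaR-A#2 (SE 0.04, 1.505-fold, edgeR adjusted p 1.21e-06) and by 0.41 with si-snaR-A#3 (SE 0.04, 1.33-fold, edgeR adjusted p 1.91e-05). Averaged over the 3 siRNAs, the rise was 0.47 (SE 0.04, edgeR adjusted p 1.34e-06). LATS2 made up 24.4% ± 1.24 of LATS1 and LATS2 per kilobase in scramble, and 29.8% ± 0.803, 31.0% ± 0.925 and 26.8% ± 1.245 with the 3 siRNAs in order (SD, n = 3).

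AMOTL1 (ENSG00000166025, chromosome 11, 94706431 to 94876748, plus strand) is an angiomotin family protein of cell junctions that binds YAP and holds it outside the nucleus. It had 82.9, 78.3 and 82.1 CPM in scramble and 143.2, 140.0 and 135.1 CPM with si-snaR-A#1. It had 112.6, 117.6 and 109.7 CPM with si-snaR-A#2 and 117.7, 110.3 and 94.8 CPM with si-snaR-A#3. All 9 libraries were above scramble, and the si-snaR-A#1 libraries were above the other 6. AMOTL1 rose by 0.78 with si-snaR-A#1 (SE 0.06, 1.72-fold, edgeR adjusted p 7.58e-07), by 0.48 with si-snaR-A#2 (SE 0.06, 1.40-fold, edgeR adjusted p 0.000138) and by 0.41 with si-snaR-A#3 (SE 0.06, 1.33-fold, edgeR adjusted p 0.00042). Averaged over the 3 siRNAs, it rose by 0.56 (SE 0.05, edgeR adjusted p 7.71e-06), more than any other of the 10 genes. AMOTL1 was a minor part of its family, 8.24% ± 0.420 of AMOT, AMOTL1 and AMOTL2 per kilobase in scramble and 11.1% ± 0.249, 10.9% ± 0.330 and 9.80% ± 0.190 with the 3 siRNAs in order (SD, n = 3).

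AMOTL2 (ENSG00000114019, chromosome 3, 134355347 to 134375479, minus strand), its relative and itself a YAP target, did not follow AMOTL1. It had 15.2, 15.6 and 14.7 CPM in scramble, 12.6, 13.3 and 12.8 CPM with si-snaR-A#1, 14.5, 15.5 and 15.7 CPM with si-snaR-A#2 and 13.5, 15.6 and 16.6 CPM with si-snaR-A#3. The si-snaR-A#1 libraries lay below all scramble libraries, and the rest overlapped them. AMOTL2 fell by 0.23 with si-snaR-A#1 (SE 0.07, 0.853-fold, edgeR adjusted p 0.0162). The call was lost without si-snaR-A#1 replicate 1 (edgeR adjusted p 0.0535) and without scramble replicate 2 (edgeR adjusted p 0.0574). Its log2 fold change was 0.01 with each of the other siRNAs (95% intervals -0.14 to 0.16, edgeR adjusted p 0.939 and 0.929).

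AJUBA (ENSG00000129474, chromosome 14, 22971177 to 22982551, minus strand) is a LIM domain protein that binds LATS kinases and restrains them. It had 21.3, 20.1 and 18.1 CPM in scramble, 17.1, 16.5 and 18.7 CPM with si-snaR-A#1, 20.3, 21.3 and 19.0 CPM with si-snaR-A#2 and 24.6, 25.6 and 24.7 CPM with si-snaR-A#3. The si-snaR-A#3 libraries were the 3 highest of the 12, and the si-snaR-A#1 libraries overlapped scramble by 1 library. AJUBA rose by 0.33 with si-snaR-A#3 (SE 0.07, 1.26-fold, edgeR adjusted p 0.00235), and after si-snaR-A#2 the log2 fold change was 0.03 (95% interval -0.12 to 0.17, edgeR adjusted p 0.827). With si-snaR-A#1 it fell by 0.19 (SE 0.07, edgeR adjusted p 0.0331), but this call was kept in only 5 of 14 alternatives, with adjusted p from 0.0094 to 0.160. It was lost without si-snaR-A#1 replicate 1 or 2 (edgeR adjusted p 0.0891 and 0.127) and without scramble replicate 1 or 2 (0.139 and 0.0846). Averaged over the 3 siRNAs, its log2 fold change was 0.05 (-0.06 to 0.17, edgeR adjusted p 0.491). AJUBA was 33.0% ± 1.27 of AJUBA, LIMD1 and WTIP per kilobase in scramble and 29.8% ± 0.905, 33.7% ± 0.298 and 39.5% ± 1.36 with the 3 siRNAs in order (SD, n = 3).

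**Figure D3:**
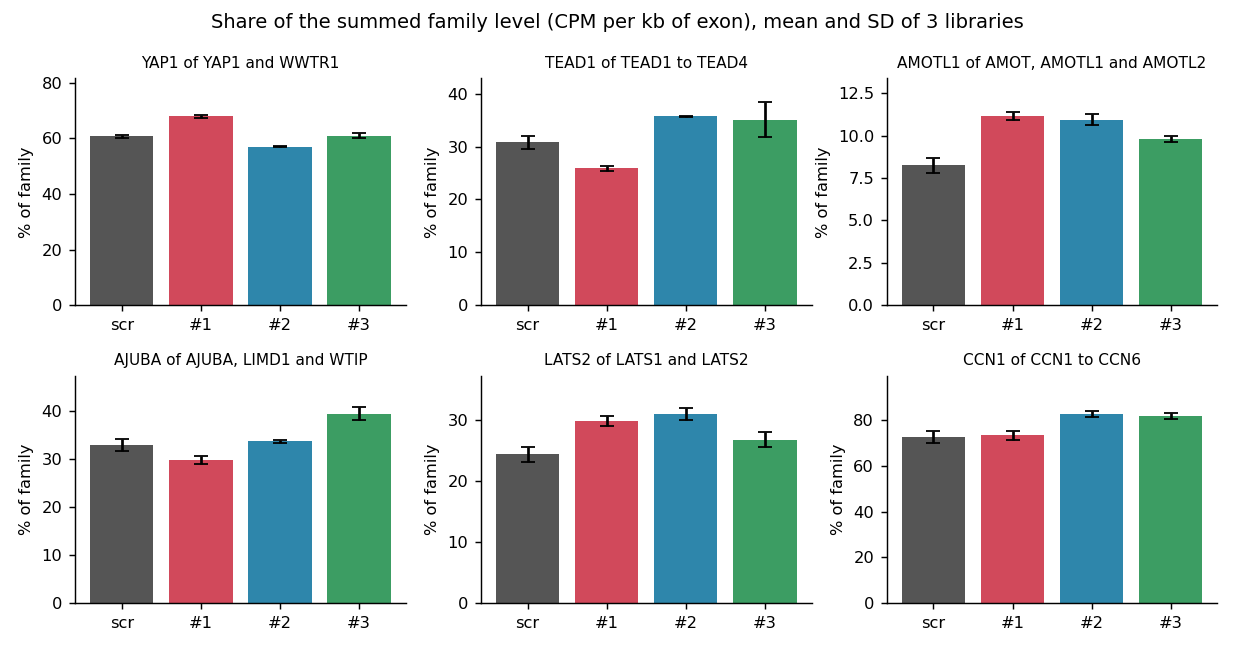
Share of 6 of the genes in the summed level of their family, in percent of CPM per kb of exon. Bars are the mean of 3 libraries and error bars the SD, for scramble (scr) and the 3 siRNAs. The YAP1 share is highest with si-snaR-A#1 (68.0%) and lowest with si-snaR-A#2 (57.1%), and the mean AMOTL1 and LATS2 shares are above scramble with all 3 siRNAs. For LATS2 the si-snaR-A#3 libraries (25.4% to 27.8%) overlap those of scramble (23.4% to 25.8%).

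The 3 targets gave 3 different responses. CCN1 (ENSG00000142871, chromosome 1, 85580761 to 85584589, plus strand), a secreted matrix protein induced within minutes of a stimulus, had 20.9, 16.8 and 18.7 CPM in scramble and 19.8, 18.6 and 22.8 CPM with si-snaR-A#1. It had 28.06, 25.78 and 28.04 CPM with si-snaR-A#2 and 29.95, 29.97 and 30.3 CPM with si-snaR-A#3. The libraries of the last 2 siRNAs all lay above the other 6, while those of si-snaR-A#1 overlapped scramble. CCN1 rose by 0.54 with si-snaR-A#2 (SE 0.08, 1.45-fold, edgeR adjusted p 0.000371) and by 0.68 with si-snaR-A#3 (SE 0.08, 1.60-fold, edgeR adjusted p 5.27e-05). With si-snaR-A#1 its log2 fold change was 0.12 (95% interval -0.06 to 0.29, edgeR adjusted p 0.280). CCN1 made up 72.8% ± 2.59 of the 6 CCN genes per kilobase in scramble and 73.5% ± 1.94, 82.9% ± 1.153 and 81.9% ± 1.17 with the 3 siRNAs in order (SD, n = 3).

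CCN2 (ENSG00000118523, chromosome 6, 131948176 to 131951372, minus strand), the connective tissue growth factor gene and the one with 3 MCAT matches, was called with none of the siRNAs. It had 3.91, 3.85 and 4.45 CPM in scramble, 4.69, 4.16 and 4.44 CPM with si-snaR-A#1, 3.42, 3.51 and 3.34 CPM with si-snaR-A#2 and 3.62, 4.17 and 4.2 CPM with si-snaR-A#3. The si-snaR-A#2 libraries were the 3 lowest of the 12. The log2 fold change after si-snaR-A#2 was -0.25 (95% interval -0.46 to -0.05, edgeR adjusted p 0.0684), which was called under upper quartile scaling (edgeR adjusted p 0.0303) and with a filter at a mean of 1 CPM (edgeR adjusted p 0.0372). It was 0.12 after si-snaR-A#1 (-0.08 to 0.33, edgeR adjusted p 0.322) and -0.03 after si-snaR-A#3 (-0.23 to 0.18, edgeR adjusted p 0.861).

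ANKRD1 (ENSG00000148677, chromosome 10, 90912096 to 90921087, minus strand), an ankyrin repeat protein widely used as a readout of YAP activity, had the largest change of the 10 genes. It had 1.88, 1.28 and 1.59 CPM in scramble and 0.467, 0.303 and 0.346 CPM with si-snaR-A#1. It had 0.857, 0.405 and 0.562 CPM with si-snaR-A#2 and 1.10, 1.07 and 1.24 CPM with si-snaR-A#3. All 9 libraries were below the lowest scramble library, with si-snaR-A#1 lowest on average and si-snaR-A#3 closest to scramble. It fell by 2.09 with si-snaR-A#1 (SE 0.26, 0.234-fold, edgeR adjusted p 2.53e-05) and by 1.38 with si-snaR-A#2 (SE 0.25, 0.385-fold, edgeR adjusted p 0.00132). With si-snaR-A#3 its log2 fold change was -0.48 (95% interval -1.002 to 0.05, edgeR adjusted p 0.163). These are low counts, from 158 to 347 in scramble and from 45 to 58 with si-snaR-A#1, so its standard errors are the widest of the 10 genes.

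**Figure D4:**
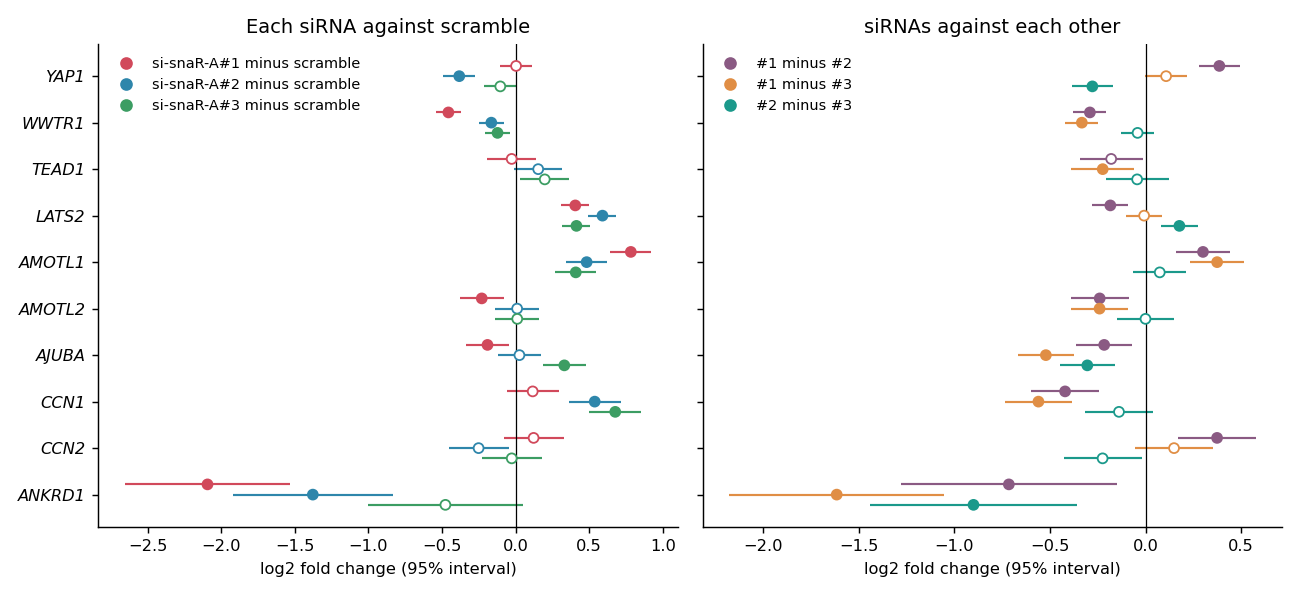
Log2 fold changes of the 10 genes with 95% intervals, on the left for each siRNA minus scramble and on the right for pairs of siRNAs. Filled points were called at an edgeR adjusted p under 0.05 and open points were not. LATS2 and AMOTL1 lie right of 0 with all 3 siRNAs, and ANKRD1 has the largest falls, -2.09 for si-snaR-A#1, followed by -1.38 for si-snaR-A#2.

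Direct comparison of the siRNAs showed where their values differed. Setting si-snaR-A#1 against si-snaR-A#2 called 9 of the 10 genes (3 higher and 6 lower in the former), against 46.7% of all genes tested. Setting si-snaR-A#1 against si-snaR-A#3 called 7 (1 higher, 6 lower), against 48.6%. Setting si-snaR-A#2 against si-snaR-A#3 called 4 (1 higher, 3 lower), against 15.6%, and only 2 without si-snaR-A#2 replicate 2 or without si-snaR-A#3 replicate 3. AMOTL1 was higher with si-snaR-A#1 than with si-snaR-A#2 by 0.30 (SE 0.06, edgeR adjusted p 0.00187) and than with si-snaR-A#3 by 0.37 (SE 0.06, edgeR adjusted p 0.000349). WWTR1 was lower with si-snaR-A#1 than with either, at -0.29 and -0.33 (SE 0.04 each, edgeR adjusted p 5.39e-05 and 1.56e-05). CCN1 was lower too, at -0.42 and -0.56 (SE 0.08 each, edgeR adjusted p 0.000911 and 9.08e-05). AMOTL1 rose furthest, and WWTR1 fell furthest, with the siRNA whose libraries stand apart over all genes.

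For YAP1 it was si-snaR-A#2 that differed, with lower values than si-snaR-A#3 (log2 fold change -0.28, SE 0.05, edgeR adjusted p 0.00247) and a level that si-snaR-A#1 exceeded by 0.39 (SE 0.05, edgeR adjusted p 3.62e-05). LATS2 was 0.18 higher with si-snaR-A#2 than with either other siRNA (SE 0.04 each, edgeR adjusted p 0.00371 and 0.0158). The call against si-snaR-A#3 was lost without si-snaR-A#2 replicate 2 (edgeR adjusted p 0.0782) and without si-snaR-A#3 replicate 3 (0.0614), and the LATS2 difference of si-snaR-A#1 from si-snaR-A#3 was -0.01 (95% interval -0.10 to 0.09). CCN2 was higher with si-snaR-A#1 than with si-snaR-A#2 (log2 fold change 0.37, SE 0.09, edgeR adjusted p 0.00546), although CCN2 was called with neither against scramble. ANKRD1 was lower with si-snaR-A#1 than with si-snaR-A#3 (log2 fold change -1.62, SE 0.26, edgeR adjusted p 0.000199), and its log2 fold changes of -0.72 for si-snaR-A#1 against si-snaR-A#2, and of -0.90 for si-snaR-A#2 against si-snaR-A#3 (edgeR adjusted p 0.0391 and 0.0280) were lost in several alternatives. The first of these ANKRD1 differences was lost without si-snaR-A#1 replicate 2 or 3 and without si-snaR-A#2 replicate 1 or 3, with adjusted p between 0.0571 and 0.225. The other was lost without si-snaR-A#2 replicate 2 or 3 and without any single si-snaR-A#3 replicate, with adjusted p between 0.0567 and 0.105. AJUBA stood 0.33 above scramble with si-snaR-A#3 and was lower with si-snaR-A#2 than with si-snaR-A#3 (log2 fold change -0.305, SE 0.07, edgeR adjusted p 0.00806). TEAD1 was lower with si-snaR-A#1 than with si-snaR-A#3 (log2 fold change -0.22, SE 0.08, edgeR adjusted p 0.0268), a call lost in 7 of 14 alternatives. These included leaving out si-snaR-A#1 replicate 2 or 3 (edgeR adjusted p 0.083 and 0.0925) or si-snaR-A#3 replicate 1 or 2 (0.124 and 0.0691). The AMOTL2 call for the same pair was lost without si-snaR-A#3 replicate 3 (edgeR adjusted p 0.057). The AJUBA call for si-snaR-A#1 against si-snaR-A#2 (log2 fold change -0.22) was lost under upper quartile scaling and without si-snaR-A#1 replicate 1 or 2 or si-snaR-A#2 replicate 2, with edgeR adjusted p between 0.051 and 0.0768. No difference of si-snaR-A#2 from si-snaR-A#3 was called for WWTR1 (-0.04, 95% interval -0.13 to 0.04), TEAD1 (-0.04, -0.21 to 0.12), CCN1 (-0.14, -0.32 to 0.04), CCN2 (-0.23, -0.43 to -0.02), AMOTL1 (0.07, -0.07 to 0.21) or AMOTL2 (0.00, -0.15 to 0.15).

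Among the upstream Hippo kinases and their activators, 9 of 17 genes passed the test in the mean of the siRNAs (4 higher, 5 lower), with a median log2 fold change of -0.03 against -0.04 over all genes. In that contrast 32.2% of all genes tested were called. The list had 4 higher and 6 lower with si-snaR-A#1 (58.8%, against 45.2% of all genes). It had 3 higher and 1 lower with si-snaR-A#2 (23.5% against 25.8%), and 5 higher and 1 lower with si-snaR-A#3 (35.3% against 29.4%). Most of the list's calls of lower expression were with si-snaR-A#1. Over all genes, too, that siRNA had the most calls of lower expression, 5127 against 2655 and 2855 for the others in order. MAP4K4, a kinase that can activate LATS in parallel to MST1 and MST2, rose by 0.39 (SE 0.04, edgeR adjusted p 9.89e-06), and was called with each siRNA (0.42, 0.29 and 0.47). NF2, which encodes the tumour suppressor merlin, and WWC1, which encodes KIBRA, each rose by 0.22 (SE 0.04, edgeR adjusted p 0.00137 and 0.00056), although WWC1 was not called with si-snaR-A#2 (0.11), where the NF2 call was kept in 6 of 14 alternatives. STK4, which encodes MST1, fell by 0.30 (SE 0.05, edgeR adjusted p 0.000515) and its scaffold SAV1 by 0.23 (SE 0.03, edgeR adjusted p 7.07e-05). Both of these falls came from si-snaR-A#1 (-0.71 and -0.65), and neither gene was called with si-snaR-A#2 (-0.04 and -0.09) or si-snaR-A#3 (-0.15 and 0.04). FRMD6, which has a FERM domain as merlin does, fell by 0.18 (SE 0.04, edgeR adjusted p 0.00481), with log2 fold changes of -0.38, -0.20 and 0.05 for the 3 siRNAs in order, of which the last was not called.

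Among the antagonists of the cascade, the STRIPAK phosphatase complex and LIM proteins related to AJUBA, 7 of 10 genes were called (2 higher, 5 lower), with a median of -0.12, where 32.2% of all genes were called. The split was 1 higher and 5 lower with si-snaR-A#1 (60%, against 45.2% of all genes). It was 2 higher and 2 lower with si-snaR-A#2 (40% against 25.8%), and 4 higher and 2 lower with si-snaR-A#3 (60% against 29.4%). STRIPAK removes the activating phosphate from MST1 and MST2. Its subunits FGFR1OP2 (-0.29, SE 0.03, edgeR adjusted p 1.24e-05) and SIKE1 (-0.26, SE 0.03, edgeR adjusted p 1.15e-05) fell and were called with each siRNA. MOB4 fell by 0.22 (SE 0.04, edgeR adjusted p 0.00108), with log2 fold changes of -0.56, -0.05 and -0.04 for the 3 siRNAs, of which the first was called. The subunits STRN3 and SLMAP were also lower in the mean, but of the single siRNAs only si-snaR-A#1 gave a call of lower expression. STRN3 had log2 fold changes of -0.76, 0.15 and 0.24, of which the second and the third were called higher. SLMAP had -0.55, 0.05 and 0.17, and was called higher with si-snaR-A#3. The scaffolds STRN and STRN4 rose by 0.16 and 0.15 (SE 0.04 and 0.03, edgeR adjusted p 0.00778 and 0.00334) in the mean, where STRN was not called with si-snaR-A#1 (0.06) nor STRN4 with si-snaR-A#2 (0.06). Subunits of 1 complex changed in both directions.

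Of the other TEAD factors and the VGLL cofactors that compete for them, 6 of 7 were tested and 3 were called in the mean (1 higher, 2 lower), with a median of -0.11, against 32.2% of all genes called. With si-snaR-A#1, TEAD4 rose by 0.67 (SE 0.05, edgeR adjusted p 3.92e-07), where TEAD1 was not called, and was not called with the other siRNAs (0.09 and 0.05). TEAD2 fell by 0.49 with si-snaR-A#2 and by 0.39 with si-snaR-A#3 (SE 0.04 each, edgeR adjusted p 3.62e-06 and 2.00e-05), and had a log2 fold change of 0.04 with si-snaR-A#1. VGLL4, which opposes YAP at TEAD, fell by 0.19 in the mean (SE 0.04, edgeR adjusted p 0.00135). The share of TEAD1 in the summed TEAD level per kilobase was 30.8% ± 1.18 in scramble and 25.9% ± 0.461, 35.8% ± 0.0881 and 35.1% ± 3.33 with the 3 siRNAs in order (SD, n = 3). It was below the scramble mean with si-snaR-A#1 and above it with the others, and the si-snaR-A#3 libraries varied most.

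Of 17 other genes known as YAP and TAZ targets, 6 were called in the mean (4 higher, 2 lower), with a median of 0.10. That is 35.3% of the list, close to the 32.2% of all genes. CCDC80, a matrix protein, rose by 0.40 (SE 0.07, edgeR adjusted p 0.0007), with log2 fold changes of 0.64, -0.03 and 0.58 for the 3 siRNAs in order, of which the first and the last were called. F3, which encodes tissue factor, rose by 0.32 (SE 0.07, edgeR adjusted p 0.00453) but was not called with si-snaR-A#3 (0.22). The growth factor gene TGFB2 rose by 0.30 (SE 0.08, edgeR adjusted p 0.0103), a call lost without scramble replicate 1 (edgeR adjusted p 0.0519). Of the single siRNAs, only si-snaR-A#1 gave a TGFB2 call (0.46), the values for the other two being 0.24 and 0.20 (edgeR adjusted p 0.0844 and 0.127). GADD45A, a stress response gene, fell by 0.24 (SE 0.05, edgeR adjusted p 0.00187). For si-snaR-A#3 alone the count was 11 of 17 (6 higher, 5 lower), or 64.7% where 29.4% of all genes were called. For si-snaR-A#1 it was 9 (5 higher, 4 lower), 52.9% against 45.2%, and for si-snaR-A#2 it was 5 (2 higher, 3 lower), 29.4% against 25.8%. These counts were not tested against each other. Of the other CCN genes only CCN3 passed the filter, at 0.320 CPM in scramble.

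SRF and its MRTF coactivators respond to actin tension and share targets with YAP. Of 10 genes in that list, 8 were tested and 5 were called in the mean (3 higher, 2 lower), with a median of 0.14, against 32.2% of all genes called. SRF itself rose by 0.37 (SE 0.04, edgeR adjusted p 3.14e-05) and was called with all 3 siRNAs (0.63, 0.26 and 0.22). The smooth muscle actin gene ACTA2 rose by 0.37 in the mean (SE 0.10, edgeR adjusted p 0.0123), a call lost without scramble replicate 2 (edgeR adjusted p 0.0814). ACTA2 was not called with si-snaR-A#1 (0.05, edgeR adjusted p 0.762), was called with si-snaR-A#2 (0.69), and its si-snaR-A#3 call (0.38) was kept in only 5 of 14 alternatives. FHL2, a LIM domain cofactor, rose by 0.24 (SE 0.04, edgeR adjusted p 0.00113), and was not called with si-snaR-A#3 (0.10). CNN2, an actin-binding calponin, fell by 0.31 (SE 0.04, edgeR adjusted p 9.93e-05), a difference that came from si-snaR-A#3 (-0.87, SE 0.05, edgeR adjusted p 1.98e-07) and was not called for si-snaR-A#1 (-0.12) or for si-snaR-A#2 (0.06).

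**Figure D5:**
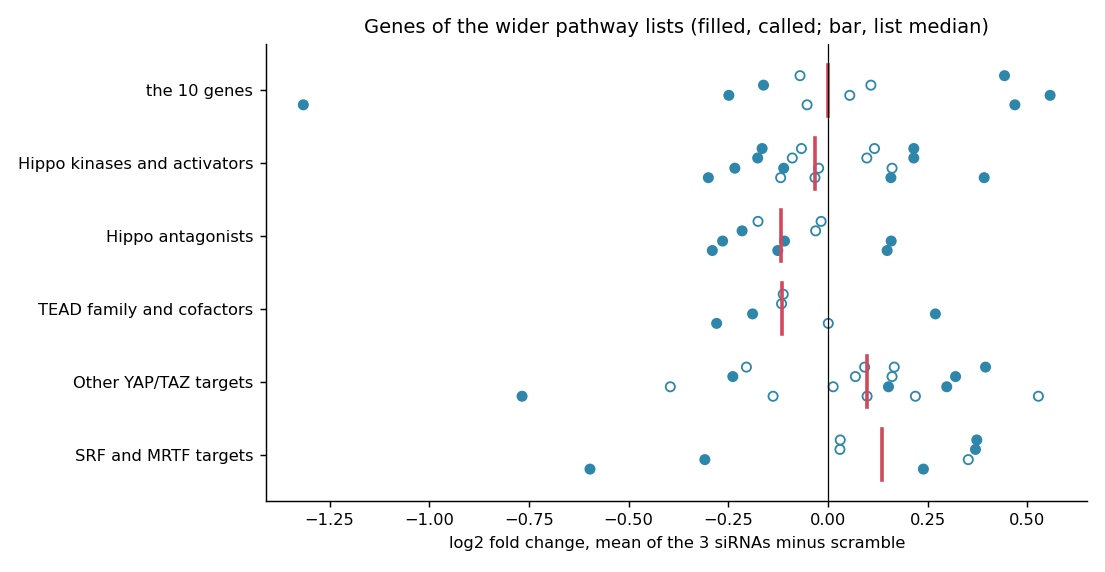
Log2 fold change in the mean of the 3 siRNAs minus scramble for the 10 genes and 5 wider lists. Each point is a tested gene, filled where called at an edgeR adjusted p under 0.05, and the red bar is the median of the list. Genes of every list lie on both sides of 0, and the list medians lie between -0.12 and 0.14.

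Across the 12 libraries, the genes whose log2 CPM followed YAP1 most closely were SHISAL1 (Pearson r 0.984), SWAP70 (0.977) and ABRAXAS2 (0.972), out of 14529 genes that averaged 1 CPM or more. For CCN1 they were TMEM214 (0.973), NABP1 (0.960) and MSL1 (0.957), and for CCN2 they were PRR7 (0.961), FLT4 (0.960) and SOX7 (0.937). None of these is one of the 10 genes or a gene of the wider lists, and the genes closest to YAP1 were not those closest to either target. The libraries of a group share their treatment, so the 12 points are not independent and the values are a description only.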

How the data were processed

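Per the labels, total RNA was depleted of rRNA, enriched for poly(A)+ RNA and made into stranded libraries, and the methods name 3 biological replicates a group, handled on the same day. Reads were trimmed with Trim Galore and assigned with Salmon, as listed in the submitters' processing notes with the build hg38. The authors deposited 1 table of estimated counts, by Ensembl gene ID and library, not scaled across libraries. The annotation release, how transcripts were summed to genes and whether strand was used are not given in the sources used here, so reads of overlapping genes may be shared. Of the positive values 0% were whole numbers, and all were rounded before testing.

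Symbols came from a gene name table, which matched 58160 of 63541 IDs, and coordinates and exon lengths from GENCODE release 44 on GRCh38. Genes were kept with filterByExpr on the 4 groups (21999 genes, at least 99.98% of each library's counts) and scaled by TMM (factors 0.956 to 1.089). All 12 libraries entered 1 fit in edgeR 4.0.16 (R 4.3.3) with 4 group coefficients, without a replicate block, and 7 contrasts were tested by quasi-likelihood with Benjamini-Hochberg adjustment. The study's own edgeR test was kept as the exact-test alternative. The common biological coefficient of variation was 0.117. The SE is the size of the log2 fold change over the root of the F statistic, and intervals are 95% t intervals from it. The code was tested on simulated data.

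The 10 genes, the wider lists, the contrasts and the alternatives were chosen with earlier results of these data known. From each wider list the text names up to 3 genes with the largest rise and 3 with the largest fall among those called in the mean of the 3 siRNAs with a mean of at least 1 CPM. For YAP1, CCN1 and CCN2 it names the 3 genes with the highest Pearson r of log2 CPM (prior count 2). PTPN14 stands in the lists of kinases and of targets. The CCN list is described by level, and the marker lists by level and by calls. Alternatives were RLE and upper quartile scaling, no filter, a filter at a mean of 1 CPM, edgeR's exact test, DESeq2 1.42.0, fits of only the groups compared, a replicate block and leaving out each library in turn. Promoter windows came from a RefSeq table, and 0 columns of the count table were left out.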

Additional observations from a re-analysis of the deposited data

Results flagged for a closer look

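AJUBA was the gene on which the siRNAs differed in direction. Its libraries lay mostly below scramble with si-snaR-A#1 (16.5 to 18.7 CPM) and all above it with si-snaR-A#3 (24.6 to 25.6 CPM), and the direct test between these siRNAs gave a log2 fold change of -0.52 (SE 0.07, 95% interval -0.67 to -0.38, edgeR adjusted p 3.02e-05). The rise with si-snaR-A#3 was called and held, while the fall with si-snaR-A#1 was lost in 9 of 14 alternatives. The cause was not tested.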

How the results depend on the processing

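Over all alternatives and contrasts, 945 log2 fold changes of the 10 genes stayed on their side of the threshold, 48 lost a call, 20 gained one and 0 called values changed direction. The calls of LATS2 and AMOTL1 with each siRNA, of WWTR1 and ANKRD1 with si-snaR-A#1, of YAP1, CCN1 and ANKRD1 with si-snaR-A#2 and of CCN1 with si-snaR-A#3 held in every alternative run, except that ANKRD1 is not tested under a filter at a mean of 1 CPM. Leaving out each library in turn gave 4 to 6 genes called with si-snaR-A#1, 5 to 6 with si-snaR-A#2, 4 to 5 with si-snaR-A#3 and 5 to 7 in the mean. Between siRNAs it gave 7 to 8 for si-snaR-A#1 against si-snaR-A#2, 6 to 7 for si-snaR-A#1 against si-snaR-A#3 and 2 to 4 for si-snaR-A#2 against si-snaR-A#3. The lowest value came without si-snaR-A#2 replicate 2 or si-snaR-A#3 replicate 3, and the cause was not tested.

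The call of WWTR1 with si-snaR-A#3 was lost in 9 of 14 alternatives, RLE scaling, no filter, the exact test and DESeq2 among them, and TEAD1 with si-snaR-A#3 was called in 4 of 14. Upper quartile scaling turned the split of all called genes from 3018 higher and 2655 lower to 2439 and 3584 with si-snaR-A#2, and from 3619 and 2855 to 2885 and 3874 with si-snaR-A#3.

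Replicate numbers did not pair the libraries: deviations from group means of same-numbered libraries correlated between -0.236 and 0.172 over 18 pairs, 5 of them over 0.1, and 0 libraries correlated best with their own number in every other group. With the replicate block, 5, 6 and 6 genes were called with the 3 siRNAs in order, AJUBA being lost with si-snaR-A#1 (edgeR adjusted p 0.0510) and TEAD1 gained with si-snaR-A#3 (0.0334).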
